A study of Homo sapiens with 62 samples.

Results

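AP-1 is a transcription factor built from pairs of basic leucine zipper proteins, and 9 genes that encode such proteins are described here across 5 human cell lines that carry an extra copy of a chromosome arm and clones of them that lost it. The genes are FOS, FOSB, FOSL1 and FOSL2 of the FOS family, JUN, JUNB and JUND of the JUN family, and ATF3 and BATF3, which pair with JUN proteins. They were taken by gene name from every count table. All 9 were listed in each table, as 9 of 58735 genes for A2058, HCT116, AGS and MCF10A and 9 of 48162 genes for A2780. The choice was made with earlier results of these data known, including the level of FOSL1 in A2780.

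FOS proteins cannot pair with themselves and bind DNA only with a JUN partner, whereas JUN proteins also pair with each other. FOS, FOSB, JUN and JUNB are immediate early genes, switched on briefly by growth factors and stress, and JUND is made more steadily. FOSL1 (FRA-1) and FOSL2 (FRA-2) are induced later and FOSL1 is a known output of sustained RAS and ERK signalling in epithelial tumours, while ATF3 is a stress-induced factor of the integrated stress response and BATF3 is best known from dendritic cells.

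Messenger RNA was sequenced in 62 libraries of 16 groups, all from cells grown for 24 hours after plating. A2058 is a melanoma line with gains of 1q, 7p and 8q. It gave 4 WT libraries, 4 libraries of 2 clones with 1q loss, 6 of 3 clones with 7p loss and 4 of 2 clones with 8q loss. HCT116, a colorectal cancer line with an 8q gain, gave 2 WT libraries and 4 of 2 clones with 8q loss. AGS, a gastric cancer line, and A2780, an ovarian cancer line, both carry a 1q gain. AGS gave 1 WT library, 2 libraries of 2 TK+ clones and 5 libraries of 5 clones with 1q loss, and A2780 gave 2 WT libraries, 2 TK+ libraries and 6 libraries of 3 clones with 1q loss. TK+ cells carry an integrated TK cassette and keep the 1q gain. MCF10A, a non-tumour breast epithelial line with a 1q gain, gave 2 WT libraries and 8 libraries of 4 clones with 1q loss, and the same numbers from cells that express hRASV12, an activated HRAS (hRas below). Every loss clone was derived from a single cell by ReDACT, a collection of engineering methods for removing an extra arm. The labels give version CO for the A2058 and HCT116 clones, AGS clone 11 and MCF10A clone 4, version NS for the A2780 clones and the other AGS clones, and version TR for MCF10A clones 1 to 3. Libraries of 1 clone share their source, so p-values measure the spread between libraries and less than the spread between independently made clones.

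Library totals were 15042068 to 30984036 counts. At least 5 of 6 markers of the labelled tissue had a mean of 1 CPM or more, where CPM is the read count of a gene scaled to the size of its library, in the controls of A2058, HCT116, AGS and MCF10A. In A2780 only 3 of 6 ovarian markers did, and PAX8, a defining one, was near 0 at 0.138 CPM. The epithelial lists share the keratin genes KRT8 and KRT18 and the adhesion gene EPCAM, and did not tell these lines apart. AGS controls had 6 of 6 intestinal and 5 of 6 gastric markers, with TFF1 at 21.97 CPM and MUC5AC at 0.153 CPM, and MCF10A WT had 5 of 6 ovarian markers. The 4 blood cell markers summed to at most 0.932 CPM in A2058, AGS and A2780, 0.750 to 1.68 CPM in HCT116 and 2.11 to 10.1 CPM in MCF10A, where 1 of the 4 had a mean of 1 CPM or more. HRAS, which checks the hRas label, was 77.4 to 100 CPM in the 10 MCF10A libraries without hRas and 154 to 409 CPM in the 10 libraries with it, with no overlap. In bulk RNA, fewer cells that express a gene and less RNA per cell cannot be told apart.

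In GRCh38 coordinates, the gene FOSL1 (ENSG00000175592) lies on 11q at chr11:65892049-65900573, FOSL2 on 2p at chr2:28392448-28417312, FOS on 14q at chr14:75278774-75282230 and FOSB on 19q at chr19:45467995-45475179. JUN lies on 1p at chr1:58780788-58784327, and JUNB and JUND lie on 19p at chr19:12791496-12793315 and chr19:18279760-18281622. ATF3 (ENSG00000162772) and BATF3 are neighbours on 1q, at chr1:212565334-212620777 and chr1:212686418-212699985, so they are the only members on an arm that was removed. The A2780 tables give GRCh37 positions, with FOSL1 at chr11:65659520-65668044. FOSB overlaps ERCC1 and JUNB overlaps HOOK2 on the opposite strand. Whether counting used the strand is not stated, so reads from these pairs cannot be told apart. In the A2058 tables ERCC1 reached 1980 counts against 40 for FOSB, and HOOK2 508 counts against 2687 for JUNB.

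AP-1 proteins also act on promoters of their own family, through the TPA response element (TRE, TGACTCA), the related 8-base element TGACATCA known from the JUN promoter, and the cyclic AMP response element (CRE, TGACGTCA), which is favoured by pairs with ATF proteins. RefSeq windows of 250 bases before to 50 after a start site (GRCh38.p14) were matched for 7 of the 9 members, with no entry for FOSL1 and BATF3. Searched on both strands, these letters were found in 4 members. The 3 windows below are shown because they belong to members called higher with 1q loss and hold a TRE or TGACATCA, given in capitals. They read 5′ to 3′ on the strand of the gene: JUN from chr1:58783998-58784297 on the minus strand, ATF3 from the first of its 2 windows, chr1:212565157-212565456 on the plus strand, and FOSL2 from chr2:28392608-28392907 on the plus strand.
JUN: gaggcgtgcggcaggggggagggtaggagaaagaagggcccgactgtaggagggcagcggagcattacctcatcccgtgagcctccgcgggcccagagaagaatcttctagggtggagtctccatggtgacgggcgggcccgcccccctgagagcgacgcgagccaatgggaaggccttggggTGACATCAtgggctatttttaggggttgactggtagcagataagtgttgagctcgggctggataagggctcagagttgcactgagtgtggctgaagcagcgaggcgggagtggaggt
ATF3: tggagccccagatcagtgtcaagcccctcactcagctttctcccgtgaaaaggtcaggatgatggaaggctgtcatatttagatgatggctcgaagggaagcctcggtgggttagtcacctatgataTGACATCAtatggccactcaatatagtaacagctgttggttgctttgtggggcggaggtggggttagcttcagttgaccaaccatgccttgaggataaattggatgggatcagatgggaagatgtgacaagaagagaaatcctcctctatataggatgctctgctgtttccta
FOSL2: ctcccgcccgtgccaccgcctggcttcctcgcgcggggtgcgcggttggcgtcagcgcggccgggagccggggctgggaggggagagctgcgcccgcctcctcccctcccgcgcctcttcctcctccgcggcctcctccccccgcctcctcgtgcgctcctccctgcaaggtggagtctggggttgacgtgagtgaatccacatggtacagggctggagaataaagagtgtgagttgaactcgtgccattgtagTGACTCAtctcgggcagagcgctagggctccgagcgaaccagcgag
TGACATCA begins 67 bases before the start site in JUN and 123 bases before it in ATF3, and the TRE begins at base 5 after it in FOSL2. The fourth match was a CRE that begins 200 bases before the start of JUND. No window of a member held a CArG box, the site of serum response factor. Sites more than 250 bases before a start were not searched, so a member may hold one there. Of 35116 promoter windows of the same length, 4.95% hold the TRE, 1.85% the CRE, 2.61% TGACATCA and 1.29% a CArG box. A match describes the letters only.

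The lines differed widely in which members they expressed before any arm was lost. Levels are compared per length of the gene model, as CPM per kilobase (RPKM), with no test, because each line was scaled on its own and the A2780 tables use other gene models. FOSL1 was the only member whose control ranges did not overlap between any neighbours in the order of the 5 lines. Its mean control level was 314 ± 116 RPKM (SD, n = 2) in HCT116, 97.0 ± 13.9 (n = 4) in A2058, 47.2 ± 2.46 (n = 2) in MCF10A, 31.2 ± 1.53 (n = 3) in AGS and 1.24 ± 0.449 (n = 4) in A2780. ATF3 followed another order, with 32.3 ± 0.825 RPKM (n = 3) in AGS and 8.87 ± 0.295 (n = 2) in HCT116, and under 1 RPKM in A2058, MCF10A and A2780, where it was 0.396, 0.323 and 0.196. The ranges of A2058, MCF10A and A2780 overlap from one to the next.

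JUN was highest in AGS at 156 ± 11.8 RPKM (n = 3), followed by MCF10A at 25.9 ± 6.22 (n = 2), A2058 at 11.5 ± 2.97 (n = 4) and HCT116 at 7.07 ± 1.15 (n = 2), the last 2 of which overlapped. In A2780 JUN was at 0.136 ± 0.0354 RPKM (n = 4), or 7 to 13 counts a library. JUND, the steadily made JUN protein, varied least, from 108 ± 38.8 RPKM in HCT116 and 103 ± 8.51 in AGS, which overlapped, through 70.0 ± 6.19 in A2780 to 41.2 ± 2.93 in A2058 and 36.2 ± 1.96 in MCF10A, which overlapped as well. JUNB ran from 67.5 ± 24.2 RPKM in HCT116, 51.9 ± 9.64 in AGS and 42.8 ± 1.19 in MCF10A, whose ranges overlap from one to the next, to 29.2 ± 4.53 in A2058 and 19.4 ± 1.17 in A2780.

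FOS was highest in AGS at 42.9 ± 8.43 RPKM. It did not differ beyond the spread between MCF10A, HCT116 and A2058 at 3.57, 3.12 and 3.02 RPKM, and was lowest in A2780 at 0.932. FOSL2 had a similar top and bottom, with 31.5 ± 3.80 RPKM in AGS, 15.1 ± 1.24 in MCF10A, 8.55 in HCT116 and 8.22 in A2058, which overlapped, and 1.84 ± 0.355 in A2780. FOSB was low throughout, at 4.84 RPKM in HCT116 and 3.38 in AGS, which overlapped, and at 0.868 in A2780, 0.561 in MCF10A and 0.148 in A2058, which did not. BATF3 was 7.74 ± 1.53 RPKM in HCT116, 1.41 in MCF10A and 0.926 in A2058, which overlapped, and 0.0662 in AGS and 0.0149 in A2780, where it had at most 8 counts and 1 count a control library. A2780 had the lowest mean control level of the 5 lines for every member but FOSB and JUND.

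**Figure D1:**
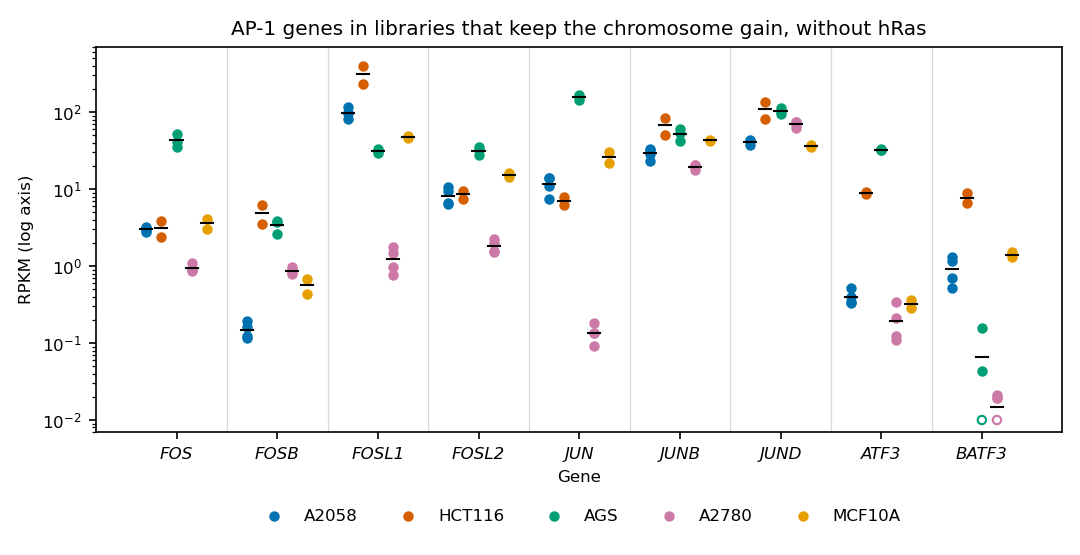
Levels of the 9 AP-1 members in the control libraries of each line, in RPKM on a log axis, with 1 point per library, a bar at the mean and open circles for libraries with 0 counts. By line mean, FOSL1 falls from 314 RPKM in HCT116 to 1.24 in A2780, while JUND stays between 36.2 and 108.

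As a share of the summed RPKM of the 4 FOS family genes, FOSL1 was the main member in HCT116 at 94.9%, A2058 at 89.5% and MCF10A at 71.0% of the controls' mean. AGS was mixed, with 39.2% FOS, 28.9% FOSL2 and 28.8% FOSL1. In A2780 the family sum was only 4.88 RPKM (range 3.97 to 5.75, n = 4), of which FOSL2 made 37.7% and FOSL1 24.9%. Among the 3 JUN family genes, JUND made 78.1% of the summed RPKM in A2780 controls, 59.0% in HCT116 and 50.5% in A2058. JUN made 50.2% in AGS and 0.152% in A2780, and JUNB was first in MCF10A WT with 40.9%.

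Changes were tested in 12 comparisons with edgeR's quasi-likelihood F-test over all genes, with Benjamini-Hochberg adjustment. Called genes are those whose adjusted p was under 0.05. Log2 fold changes are given with their standard errors (SE), and tests were two-sided. FOSL2 was called most often, higher in 2 comparisons and lower in 2 of 12. FOSL1, JUNB and ATF3 were called higher in 2 each and lower in none. FOS was called higher in 1 and lower in 1, FOSB, JUN and BATF3 higher in 1 each, and JUND in none. The 3 A2058 comparisons share their WT libraries, the 2 A2780 comparisons share both control groups, and each MCF10A group enters several comparisons, so these counts are not independent.

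**Figure D2:**
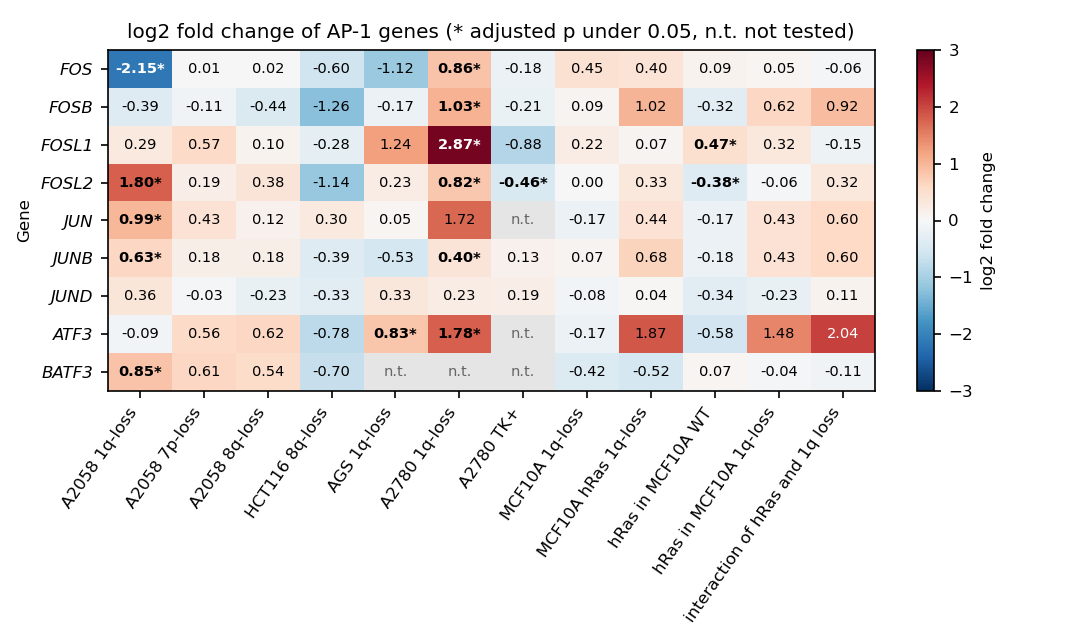
Log2 fold change of each AP-1 member in each of the 12 comparisons, as a number on a color scale, with an asterisk at an adjusted p under 0.05 and n.t. where a gene was not tested. The A2780 1q-loss comparison has 6 members called higher and A2058 1q-loss 4 higher and FOS lower, while 7p loss and both 8q losses have none.

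In A2780, 6 of 8 tested members rose with 1q loss and none fell, where 11.8% of all 15044 genes were called and 5.95% called higher. The largest change was that of FOSL1. It was 2.49 and 2.91 CPM in WT and 1.63 and 1.28 CPM in TK+ cells, and 16.4 and 12.7 CPM in clone 2, 18.6 and 15.7 CPM in clone 5 and 13.3 and 14.3 CPM in clone 6. All 6 loss libraries lay far above all 4 controls, clone 2 overlapped both other clones, and clone 5 lay above clone 6. The mean went from 2.08 ± 0.750 CPM (SD, n = 4) to 15.2 ± 2.19 CPM (n = 6), a 7.29-fold rise, or 2.87 on the log2 scale (SE 0.23, edgeR adjusted p = 7.42e-05). WT libraries alone as controls gave a log2 fold change of 2.49 (edgeR adjusted p = 0.000144) and TK+ libraries alone gave 3.37 (edgeR adjusted p = 0.000122). FOSL1 ranked 6 of 551 tested genes on 11q, whose median log2 fold change was 0.01.

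FOSB, a short-lived FOS protein gene, was 3.39 and 3.65 CPM in WT, 3.08 and 2.98 in TK+ cells, 5.61 and 5.93 in clone 2, 9.32 and 7.06 in clone 5 and 5.83 and 6.52 in clone 6. Again no loss library overlapped a control, and the log2 fold change was 1.03 (SE 0.17, edgeR adjusted p = 0.00294). FOS, the founding member, was at 2.35 and 1.92 CPM in WT, 1.94 and 1.83 in TK+ cells, 2.58 and 2.42 in clone 2, 3.47 and 3.89 in clone 5 and 4.90 and 4.62 in clone 6. Its clones were ordered without overlap, with clone 2 just above the controls, and its log2 fold change was 0.86 (SE 0.23, edgeR adjusted p = 0.0333). FOSL2 was 15.3 and 13.3 CPM in WT, 10.4 and 10.4 in TK+ cells, 15.01 and 18.8 in clone 2, 18.6 and 20.5 in clone 5 and 31.1 and 26.96 in clone 6. Of clone 2, 1 library lay inside the control range, and the log2 fold change was 0.82 (SE 0.21, edgeR adjusted p = 0.0267).

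In the JUN family, JUNB rose by a small step from 32.3 to 36.9 CPM in the 4 controls to 41.2 to 52.7 CPM in the 6 loss libraries, which did not overlap. Its log2 fold change was 0.40 (SE 0.08, edgeR adjusted p = 0.00865). JUN was barely detected, with 7 to 13 counts in the 4 controls, 11 and 9 in clone 2, 23 and 13 in clone 6, and 65 and 81 in clone 5. Its high libraries came from clone 5, and the log2 fold change of 1.72 did not pass (SE 0.67, edgeR adjusted p = 0.125), although DESeq2 called it (adjusted p = 0.0418). JUND was 115 to 140 CPM in controls and 132 to 185 CPM with 1q loss, with overlap (log2 fold change 0.23, edgeR adjusted p = 0.121).

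ATF3 was the one tested member on the removed arm. It had 16 and 9 counts in WT, 6 and 5 in TK+ cells, 13 and 12 in clone 2, 62 and 39 in clone 5 and 32 and 36 in clone 6, or 0.229 to 0.723 CPM in controls and 0.579 to 2.83 CPM with 1q loss. Clone 2 lay inside the control range and clones 5 and 6 above it, with a log2 fold change of 1.78 (SE 0.51, edgeR adjusted p = 0.046). BATF3 had 0 to 7 counts a library in A2780 and was not tested. Over the FOS family, the summed level went from 4.88 RPKM in controls to 15.8 RPKM (range 13.1 to 17.99, n = 6) with 1q loss, and the share of FOSL1 from 24.9% (19.4% to 31.2%) to 57.6% (48.4% to 66.6%).

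**Figure D3:**
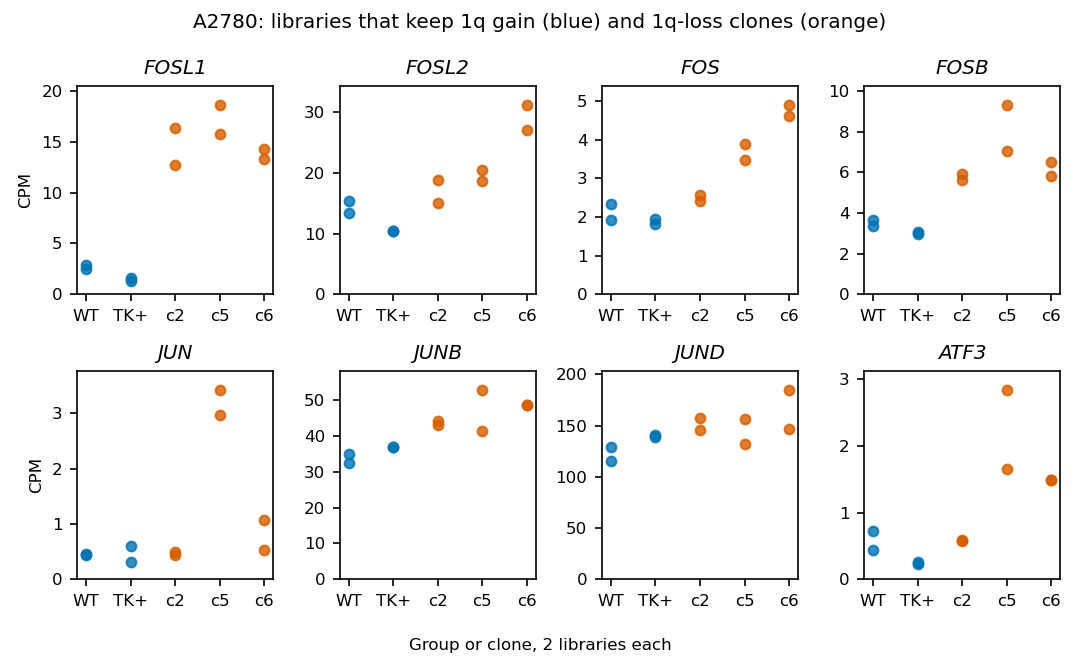
CPM of the AP-1 members in each A2780 library by group and clone (c2, c5 and c6), on linear axes from 0, with 1 point per library. FOSL1 lies at 1.28 to 2.91 CPM in the 4 controls and 12.7 to 18.6 CPM in the 6 1q-loss libraries, whereas ATF3 and JUN of clone 2 lie within the range of the controls.

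FOSL1 and FOSB kept their call in A2780 under all 22 alternatives of processing, and JUNB lost it in 1, FOSL2 in 6, FOS in 14 and ATF3 in 15. FOS and ATF3 were each not called without any single library of clone 5 or 6, without either of these clones whole, without any single control library, or with no filter on low counts. Without WT replicate 2, TK+ replicate 1 or TK+ replicate 2, 3 members were called, and 3 were called with the libraries of each clone summed. FOSL1, FOSB and JUNB made up these 3. ATF3 lost its call with WT controls alone (log2 fold change 1.29, edgeR adjusted p = 0.267), with TK+ controls alone (2.52, edgeR adjusted p = 0.0854) and with summed clones (1.78, edgeR adjusted p = 0.103). FOS lost it in the same 3 settings (edgeR adjusted p = 0.184, 0.138 and 0.0869).

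The 2 control groups of A2780 differed from each other. TK+ cells against WT cells had 11.2% of 14888 genes called, and 1 of 6 tested AP-1 members. FOSL2 fell by 0.46 on the log2 scale in TK+ cells (SE 0.13, edgeR adjusted p = 0.0496), a call that DESeq2 did not make. FOSL1 was also lower in both TK+ libraries than in both WT libraries (log2 fold change -0.88, SE 0.29, edgeR adjusted p = 0.0867). A fibroblast marker list, all 4 of whose genes A2780 expresses at 1 CPM or more, summed to 782 to 793 CPM in WT, 203 to 241 CPM in TK+ cells and 358 to 2876 CPM with 1q loss, and the 6 ovarian carcinoma markers summed to 171 to 180, 5.99 to 8.21 and 7.28 to 84.8 CPM. The part of these marker genes in the AP-1 changes was not tested.

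Genes around AP-1 were followed in 6 lists. Of 15 tested AP-1 target genes in A2780, 6 were called higher with 1q loss and none lower, with a median log2 fold change of 0.60 against 0.01 over all genes, of which 5.95% were called higher and 11.8% in all. They included MMP3 at 5.0 (edgeR adjusted p = 0.000544) and MMP10 at 3.20 (edgeR adjusted p = 4.83e-08), which encode matrix proteases, and PLAU at 2.25, which encodes a plasminogen activator. Of 11 ERK output genes, 6 were called higher, among them SPRY4 (0.91) and DUSP6 (0.75), which dampen ERK signalling, with a median of 0.38. Of 14 other immediate early genes, 5 were called higher, led by EGR3 (2.35) and EGR1 (1.43), with a median of 0.62. None of 12 kinases upstream of AP-1 was called. Of 8 other partners, 2 were called higher, the small MAF genes MAFF (1.07) and MAFG (0.22), and of 13 stress genes of ATF4 and ATF3, 4 were called higher, led by GDF15 (2.61). In TK+ cells, MMP3 was called higher by 1.00 against WT on the log2 scale, and 4 of 14 immediate early genes were called lower, with a median of -0.36, where 11.2% of all genes were called. Of 11 ERK output genes, SPRY4 (0.47) and SPRY2 (0.29) were called higher in TK+ cells than in WT, and PHLDA1 (-1.56) lower. Over the 10 A2780 libraries, the log2 CPM most like that of FOSL1 among 13125 genes were those of the chemokine gene CXCL16, the nuclear receptor gene NR4A1 and the autophagy gene DRAM1, each with a Pearson r of 0.99. These libraries share groups and clones, so the values only describe the pattern.

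In AGS, 1 of 8 tested members was called with 1q loss, and 7.55% of 14988 genes. ATF3 was 134 CPM in WT, 129 and 128 CPM in the TK+ clones, and 226, 213, 193, 200 and 321 CPM in clones 1, 4, 6, 7 and 11. All 5 loss clones lay above all 3 controls although the gene lies on the lost arm, and the mean rose from 130 ± 3.33 CPM (SD, n = 3) to 231 ± 52.0 CPM (n = 5), a log2 fold change of 0.83 (SE 0.17, edgeR adjusted p = 0.0248). The call was lost without any 1 of the 3 controls (edgeR adjusted p = 0.0897, 0.112 and 0.09).

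FOSL1 was 61.6 CPM in AGS WT, 55.9 and 59.2 CPM in the TK+ clones, and 142, 157, 77.0, 81.7 and 236 CPM in clones 1, 4, 6, 7 and 11. The 5 clones again lay above the controls, but their wide spread left the log2 fold change of 1.24 just outside the threshold (SE 0.35, edgeR adjusted p = 0.0598), and DESeq2 called it (adjusted p = 0.00352). The 11q arm, where FOSL1 lies, was itself higher in clones 1 and 4, by a median of 0.40 and 0.55 on the log2 scale, and by 0.04, 0.04 and 0.03 in clones 6, 7 and 11. Without clones 1 and 4, a setting added after the data were seen, FOSL1 had a log2 fold change of 1.17 (edgeR adjusted p = 0.102) and ATF3 0.88 (edgeR adjusted p = 0.0311), and JUND was called too at 0.48 (edgeR adjusted p = 0.0406).

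FOS went the other way in AGS, from 115, 169 and 133 CPM in the controls to 22.1, 28.1, 102, 106 and 59.4 CPM in clones 1, 4, 6, 7 and 11. All 5 clones were below the controls, with clones 1 and 4 lowest, and the log2 fold change of -1.12 did not pass (SE 0.48, edgeR adjusted p = 0.176). JUNB (-0.53, adjusted p = 0.184), FOSB (-0.17), FOSL2 (0.23), JUN (0.05) and JUND (0.33, adjusted p = 0.18) were not called by edgeR, and BATF3 was too low to test, with at most 0.456 CPM. By share of the FOS family's RPKM, FOSL1 made 53.6% (39.7% to 68.5%, n = 5) after 1q loss against 28.8% in controls, and FOS 16.6% against 39.2%.

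The AP-1 target list did not rise in AGS. Of its 12 tested genes none was called higher and 2 lower, MMP1 (log2 fold change -3.44, edgeR adjusted p = 0.0291), which encodes a collagenase, and the integrin gene ITGA2 (-0.91, edgeR adjusted p = 0.0284), with a list median of -0.27 against 0.01 over all genes, of which 7.55% were called. Of 16 immediate early genes 3 were called higher, NR4A1 (1.07), DUSP1 (0.76) and KLF6 (0.57), and of 12 ERK output genes none was called by edgeR. Of 12 kinases, MAPK3 (0.59) was called higher and RPS6KA3 (-0.59) lower, and of 12 stress genes ASNS, which makes asparagine, was called lower (-1.25), a share near that of all genes. The 6 gastric epithelial markers, of which KRT8, KRT18 and EPCAM are in other lists too, summed to 3806 to 5227 CPM in the 3 controls and 5877 to 7875 CPM in the 5 loss clones, and 4 fibroblast markers to 37.8 to 132 CPM in the controls and 47.9 to 370 CPM in the clones. Blood cell markers were at or under 0.118 CPM. Their part in the AP-1 values of AGS was not tested.

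In A2058, 1q loss came with 4 of 9 members higher and 1 lower, in a comparison where 49.6% of 15387 genes were called and 25.3% called higher. Counted in both directions, the members' share of 5 of 9 called is close to that of all genes. FOSL2 had the largest rise of the 9 members. It was 46.5, 46.2, 75.5 and 67.0 CPM in WT replicates 1 to 4, 180 and 211 CPM in clone 1 and 201 and 227 CPM in clone 2. The groups did not overlap, and the 3.48-fold rise was 1.80 on the log2 scale (SE 0.16, edgeR adjusted p = 7.04e-06). FOSL2 ranked 14 of 396 tested genes on 2p.

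FOS fell from 10.5, 10.1, 9.004 and 9.52 CPM in A2058 WT to 2.48 and 3.10 CPM in clone 1 and 1.12 and 2.15 CPM in clone 2 of 1q loss. No library overlapped, and the log2 fold change was -2.15 (SE 0.25, edgeR adjusted p = 4.93e-05). JUN, its usual partner, rose from 26.7, 39.0, 48.6 and 49.1 CPM in WT to 66.8 and 95.6 CPM in clone 1 and 68.8 and 95.0 CPM in clone 2 (log2 fold change 0.99, SE 0.19, edgeR adjusted p = 0.00153). JUNB rose from 42.5, 51.2, 58.2 and 61.0 CPM to 68.8 and 94.4 CPM and 65.4 and 101 CPM (log2 fold change 0.63, SE 0.16, edgeR adjusted p = 0.00717). In both genes the lowest loss library stood above the highest WT library.

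FOSL1, by far the most abundant FOS gene of this melanoma line, was 153 to 217 CPM in WT and 182 to 267 CPM with 1q loss, which overlapped (log2 fold change 0.29, SE 0.13, edgeR adjusted p = 0.0874). JUND (0.36, adjusted p = 0.0839), FOSB (-0.39, adjusted p = 0.353) and ATF3 (-0.09, adjusted p = 0.778) were not called by edgeR either. BATF3 was called higher although it lies on the lost arm, from 1.42, 1.904, 3.56 and 3.17 CPM in WT to 4.44, 6.24, 3.59 and 4.00 CPM (log2 fold change 0.85, SE 0.30, edgeR adjusted p = 0.0346). Its lowest loss library was just above its highest WT library. The call of BATF3 was lost in 7 of 19 alternatives, among them without clone 1 (0.59, edgeR adjusted p = 0.178), with summed clones (0.86, edgeR adjusted p = 0.0852) and with WT replicates 3 and 4 as the only controls (0.44, edgeR adjusted p = 0.233). In that last setting, FOS, FOSL2 and JUN made up the 3 members called.

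The A2058 clones with 1q loss also differed from WT in markers of cell type. The 6 melanocyte lineage markers summed to 2486 to 4399 CPM in WT and 49.5 to 255 CPM with 1q loss, while 4 fibroblast markers summed to 17.3 to 25.04 and 120 to 249 CPM, 3 endothelial markers to 0.659 to 1.06 and 10.4 to 19.4 CPM, and 6 basal epithelial markers to 4.31 to 8.50 and 57.8 to 286 CPM. Blood cell markers stayed at or under 0.932 CPM. The part of this shift in the AP-1 changes was not tested. Beside it, 16 of 20 tested AP-1 target genes were called higher and 1 lower, with a median log2 fold change of 2.53 against -0.00 over all genes. They included the EGF receptor ligand genes EREG (6.94) and AREG (5.50) and the cytokine gene IL6 (5.52). Of 13 ERK output genes 8 were called higher and 3 lower, among them DUSP5 (2.16) and EPHA4 (-2.71). Of 15 other immediate early genes 5 were called higher and 5 lower, among them NR4A3 (-3.12), BTG2 (-2.61) and IER3 (1.91). Of 11 other partners 6 were called higher and 2 lower, among them BATF at 4.82 and MAF at -3.19. Kinases were split, with 3 of 12 higher and 3 lower, and of 13 stress genes 4 were called higher and 2 lower, GDF15 falling by 3.31. These shares of 6 of 12 and 6 of 13 (46.2%) called are near the 49.6% of all genes.

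The other 2 arm losses in A2058 and the 8q loss in HCT116 gave no call among the 9 members. For 7p loss in A2058 0.908% of all genes were called, and no member was called by DESeq2. An unadjusted p under 0.05 by edgeR was reached by 1986 of 15305 genes and by 1 member. That member was FOSL1, and its spread lay between clones. Clone 1 had 420 and 347 CPM, above all WT libraries, whereas clones 2 and 3 had 176 to 246 CPM (log2 fold change 0.57, SE 0.23, edgeR adjusted p = 0.326). JUN was split in the same way, with 112 and 116 CPM in clone 1 and 16.5 to 32.1 CPM in clones 2 and 3, against 26.7 to 49.1 CPM in WT. For 8q loss in A2058 2.03% of all genes were called, and 2 members, ATF3 at 0.62 and JUND at -0.23 on the log2 scale, had an unadjusted p under 0.05 by edgeR (both adjusted p = 0.36), again with none called by DESeq2. Over all genes, 1973 of 15141 had an unadjusted p under 0.05 by edgeR there. The small MAF gene MAFK was called lower with 7p loss (-0.74), and MAFG (-0.53), PLAU (-3.16) and SESN2 (-0.65) with 8q loss.

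In HCT116, where 0.14% of genes were called with 8q loss, 3 members had an unadjusted p under 0.05 by edgeR and none was called by edgeR or DESeq2. Over all genes, 854 of 15659 had an unadjusted p under 0.05 by edgeR. All 4 loss libraries lay below both WT libraries for these 3 members, and how many of all genes were separated in this way was not counted. FOSL2 was 68.4 and 54.0 CPM in WT and 27.6, 21.1, 34.96 and 27.5 CPM with 8q loss (log2 fold change -1.14, SE 0.28, edgeR adjusted p = 0.285). FOSB was 34.4 and 19.3 CPM against 16.7, 11.3, 8.32 and 8.53 CPM (-1.26, SE 0.38, edgeR adjusted p = 0.536), and ATF3 was 34.98 and 36.7 CPM against 23.9, 27.7, 15.4 and 16.6 CPM (-0.78, SE 0.31, edgeR adjusted p = 0.808). The median over the 9 members was -0.60 on the log2 scale, against 0.02 over all genes. FOSL1, the main FOS gene of HCT116, varied within groups, with 748 and 437 CPM in WT, 785 and 591 CPM in clone 1 and 277 and 292 CPM in clone 2. Among the 6 lists, 1 gene was called, the stress cytokine gene GDF15 (-3.30, edgeR adjusted p = 0.00297).

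ATF3 and BATF3 could be set against the other genes of 1q, which fell with its loss. The median log2 fold change over tested 1q genes was -0.46 in A2058 (n = 677), -0.54 in AGS (n = 659), -0.45 in A2780 (n = 647), -0.49 in MCF10A (n = 710) and -0.36 in MCF10A with hRas (n = 720). Ranked from the highest log2 fold change, ATF3 was 25 of 659 in AGS, 12 of 647 in A2780 and 15 of 720 in MCF10A with hRas, but 173 of 677 in A2058 and 154 of 710 in MCF10A. It was called higher in AGS and A2780 and in no other 1q loss. BATF3, some way downstream, was 46 of 677 in A2058, 283 of 710 in MCF10A and 485 of 720 in MCF10A with hRas, where its log2 fold change was -0.52 (SE 0.37, edgeR adjusted p = 0.506). The 2 neighbours thus held different ranks in the same comparison.

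**Figure D4:**
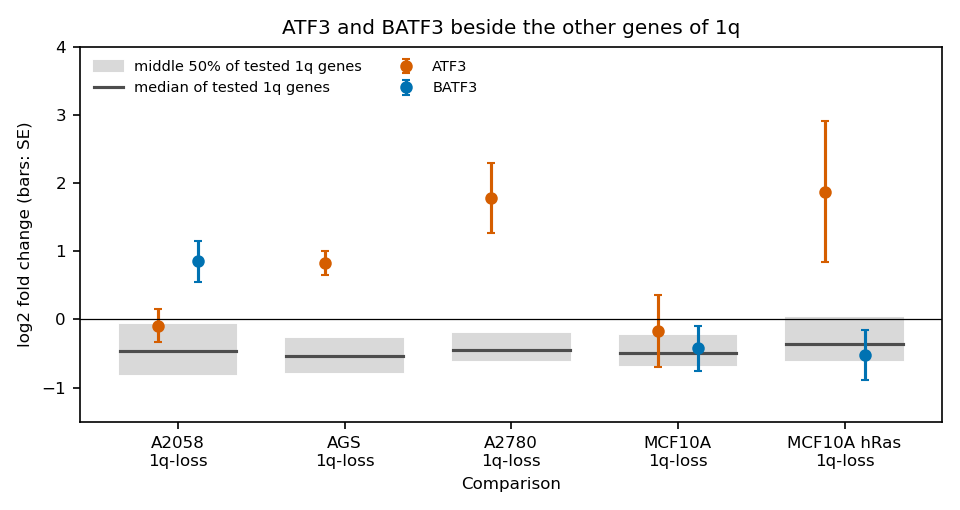
Log2 fold change with 1q loss of ATF3 and BATF3, which lie on 1q, beside the median and quartiles of all tested 1q genes, in each 1q-loss comparison, with bars for the SE. The 1q medians lie between -0.54 and -0.36, and ATF3 lies at 1.78 in A2780 and 0.83 in AGS. Its value of 1.87 in MCF10A with hRas has an SE of 1.04.

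In MCF10A without hRas, 1q loss called none of the 9 members, where 2.04% of genes were called. An unadjusted p under 0.05 by edgeR was reached by 1848 of 15666 genes and, among the members, by FOS alone. DESeq2 called none of the 9. FOS was 13.4 and 9.75 CPM in WT and 12.8 to 20.6 CPM in the 8 loss libraries, with overlap (log2 fold change 0.45, SE 0.19, edgeR adjusted p = 0.358). FOSL1 was 85.7 and 92.3 CPM in WT and 69.8 to 123 CPM with 1q loss. FOSL2 separated 1 clone, with 160 and 145 CPM in clone 4 against 102 and 114 CPM in WT. Of 18 AP-1 target genes 1 was called, the cell adhesion gene CD44 (0.40, edgeR adjusted p = 0.0116).

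Expression of hRas in MCF10A WT raised FOSL1, a recognised target of RAS signalling, from 85.7 and 92.3 CPM to 124 and 122 CPM. The groups did not overlap, and the log2 fold change was 0.47 (SE 0.08, edgeR adjusted p = 0.00813). FOSL2 fell from 102 and 114 CPM to 81.3 and 84.5 CPM (-0.38, SE 0.08, edgeR adjusted p = 0.0405). These were the 2 members called of 9, where 1.62% of 14646 genes were called. JUND (-0.34, adjusted p = 0.0896) was lower in both hRas libraries and not called by edgeR, and ATF3 was 1.45 and 1.16 CPM without and 0.876 and 0.880 CPM with hRas (-0.58, edgeR adjusted p = 0.644). FOSL1 was not called without WT replicate 1 (log2 fold change 0.42, edgeR adjusted p = 0.341), WT replicate 2 (0.52, edgeR adjusted p = 0.233) or hRas WT replicate 1 (0.45, edgeR adjusted p = 0.103), and FOSL2 lost its call when any 1 of the 4 libraries was left out (-0.46 to -0.30, edgeR adjusted p = 0.115 to 0.397). In these fits the lone library is assumed to vary like the other group. Of 13 ERK output genes 4 were called higher, SPRY4 (0.65), DUSP5 (0.50), DUSP4 (0.41) and PHLDA1 (0.39), with a list median of 0.22 against -0.01 over all genes, and of 17 AP-1 targets CXCL8 (2.45) and TIMP1 (0.64) were called higher.

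In the 1q-loss clones, JUNB, ATF3 and FOSB, 3 members chosen after their values were seen, are given clone by clone. Differences between clones were not tested. JUNB was 67.9 to 85.7 CPM in clones 1 to 3 and 104 and 93.3 CPM in clone 4 without hRas. With hRas it was 91.6 and 79.7 CPM in clone 1, 131 and 128 CPM in clone 2, 81.4 and 80.5 CPM in clone 3 and 138 and 145 CPM in clone 4. ATF3 was 0.491 to 1.40 CPM in clones 1 to 3 and 2.47 and 1.86 CPM in clone 4 without hRas, and 0.845 and 1.13, 5.09 and 6.26, 0.636 and 0.726, and 5.33 and 5.57 CPM in clones 1 to 4 with it. FOSB was 2.36 to 3.10 CPM in clones 1 to 3 and 6.29 and 4.29 CPM in clone 4 without hRas, and 3.57 and 2.74, 6.39 and 7.21, 2.50 and 3.22, and 7.08 and 7.87 CPM with it. Clones 2 and 4 were the high ones for all 3 genes, and they also had the most HRAS, at 409 and 364 CPM and 234 and 229 CPM against 154 to 162 CPM in clones 1 and 3. On 19q, where FOSB lies, clone 4 was higher than WT by a median of 0.53 and 0.62 on the log2 scale with hRas and 0.51 and 0.36 without, and the other clones with hRas by 0.03 to 0.18. The part of HRAS level and of 19q in these values was not tested.

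FOSL1 was 118 and 123, 80.9 and 120, 104 and 119, and 69.8 and 96.8 CPM in clones 1 to 4 without hRas and 187 and 177, 133 and 124, 110 and 115, and 94.3 and 94.1 CPM with it. Its mean was higher with hRas in all 4 clones, most in clone 1. The fit over libraries with no clone term called none of the 9 members for hRas in 1q-loss clones, where 1.2% of genes were called, and DESeq2 called no member. An unadjusted p under 0.05 by edgeR was reached by 2597 of 14332 genes and by 4 members. JUNB had a log2 fold change of 0.43 (SE 0.15, edgeR adjusted p = 0.134), ATF3 1.48 (SE 0.53, edgeR adjusted p = 0.155), FOSB 0.62 (SE 0.29, edgeR adjusted p = 0.262), JUN 0.43 (SE 0.17, edgeR adjusted p = 0.197), FOSL1 0.32 (SE 0.15, edgeR adjusted p = 0.28) and JUND -0.23 (SE 0.11, edgeR adjusted p = 0.287).

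Clones of the same number with and without hRas deviated together, and with the clone number as a block 6 of the 9 members were called, among 15.1% of all genes. In that paired fit JUNB rose by 0.39 (SE 0.08, edgeR adjusted p = 0.00841), FOSB by 0.57 (SE 0.15, edgeR adjusted p = 0.0235), ATF3 by 1.17 (SE 0.35, edgeR adjusted p = 0.0351), JUN by 0.40 (SE 0.12, edgeR adjusted p = 0.0402) and FOSL1 by 0.29 (SE 0.09, edgeR adjusted p = 0.0456), and JUND fell by 0.25 (SE 0.07, edgeR adjusted p = 0.0322). When the 2 libraries of each clone were also summed, so that a clone counted once, the fold changes stayed close and none was called (edgeR adjusted p = 0.356 to 0.413 for these 6). FOS, FOSL2 and BATF3 were not called in any of these 3 fits.

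Against hRas WT, the hRas 1q-loss clones had none of 9 members called, where 0.214% of genes were called, and DESeq2 called no member. An unadjusted p under 0.05 by edgeR was reached by 2262 of 15851 genes and by 1 member. That member was JUNB, for which all 8 loss libraries lay above 73.2 and 64.3 CPM of hRas WT (log2 fold change 0.68, SE 0.27, edgeR adjusted p = 0.312). ATF3 (1.87, SE 1.04, edgeR adjusted p = 0.418) and FOSB (1.02, SE 0.50, edgeR adjusted p = 0.374) had larger and less certain values. None of the 6 gene lists had a member called by edgeR in this comparison, and the 20 tested AP-1 target genes had a median of 0.84 against 0.03 over all genes. The difference between the effects of hRas with and without 1q loss was tested as an interaction over all 20 MCF10A libraries. No gene passed by edgeR (0%), 366 of 16492 had an unadjusted p under 0.05, and DESeq2 called 1. With the clone number as a block, a setting added after the data were seen, edgeR called 1 gene, which was no member, and 1278 had an unadjusted p under 0.05. The interaction without the block was 2.04 for ATF3 (SE 1.14), 0.92 for FOSB (SE 0.61), 0.60 for JUN (SE 0.36) and 0.60 for JUNB (SE 0.30), each with an edgeR adjusted p of 0.999. With the block it was 1.74 for ATF3 (SE 0.72), 0.88 for FOSB (SE 0.35), 0.57 for JUN (SE 0.27) and 0.57 for JUNB (SE 0.18), with edgeR adjusted p of 0.625, 0.62, 0.643 and 0.602.

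**Figure D5:**
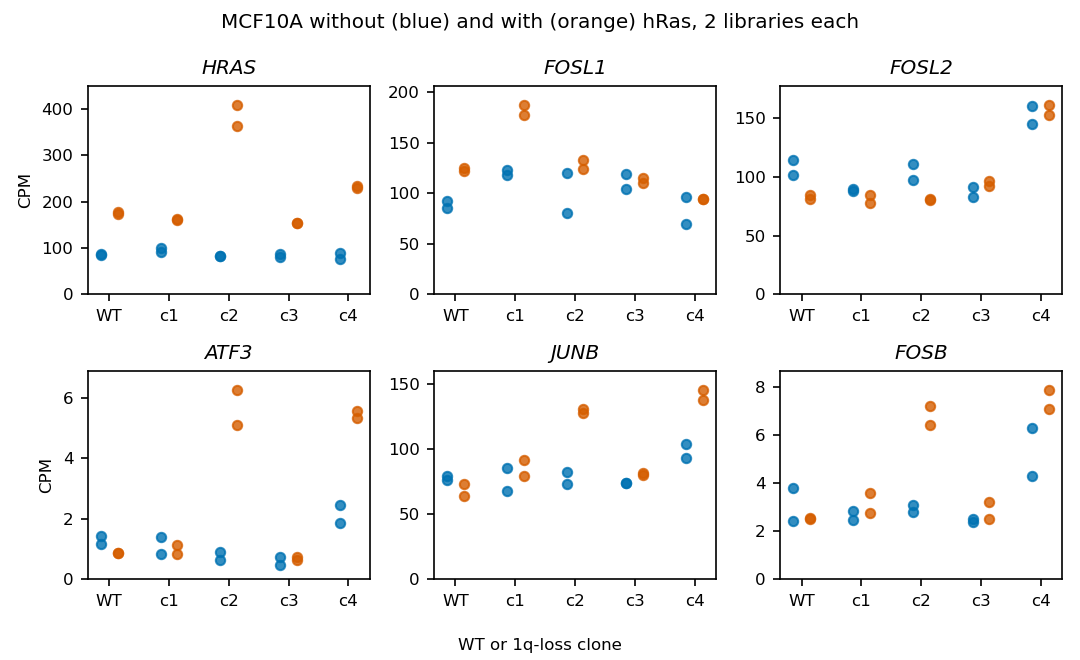
CPM of HRAS and 5 AP-1 members in the 20 MCF10A libraries, by WT or clone, without (blue) and with (orange) hRas, on linear axes from 0, with 1 point per library. With hRas, ATF3 of clones 2 and 4 lies at 5.09 to 6.26 CPM, above 0.636 to 1.13 CPM in clones 1 and 3, and HRAS is higher in all hRas libraries.

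Beside these members, 5 of 13 ERK output genes were called higher by hRas in the 1q-loss clones, led by SPRY4 (log2 fold change 1.29, edgeR adjusted p = 0.0254) and DUSP5 (0.84, edgeR adjusted p = 0.00626), with a list median of 0.37 against 0.01 over all genes, of which 1.2% were called. Of 18 AP-1 target genes CXCL8 was called higher (3.73, edgeR adjusted p = 0.00057), and of 14 immediate early genes CTGF (2.35, edgeR adjusted p = 0.0422). The 6 basal epithelial markers that define MCF10A summed to 8404 to 15805 CPM in 1q-loss clones without hRas and 2860 to 11829 CPM with it, and 4 fibroblast markers to 8.03 to 24.7 and 14.2 to 286 CPM. The part of these markers in the AP-1 values was not tested. Over the 20 MCF10A libraries, the genes most like FOSL1 in log2 CPM among 13282 were CCDC85B and RPN1, each with a Pearson r of 0.83, and SZRD1, with 0.82. Those most like ATF3 were CHD2, VSTM2L and FOSB, each with a Pearson r of 0.92, so that another AP-1 member was among the 3. Libraries of 1 clone share their source, and these values describe the pattern only.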

How the data were processed

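Polyadenylated RNA was captured on poly-T beads and reverse transcribed with random hexamers, per the labels' protocols. The deposited tables hold raw read counts per gene, whole numbers with no normalization. The submitters' processing notes name HISAT2 2.0.5, featureCounts 1.5.0-p3 and hg38, but the A2780 tables carry GRCh37 coordinates. Strand settings are not given in the sources used here.

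From these counts, genes with enough reads (filterByExpr, minimum count 10 and minimum total 15) were fitted per comparison with edgeR 4.0.16 (TMM scaling, quasi-likelihood F-test), with Benjamini-Hochberg adjustment over all genes tested. CPM used TMM-scaled library sizes over all libraries of a line, and RPKM the gene lengths of the tables, so levels across lines were not tested. The steps were tested on simulated data. Its libraries were drawn independently, with the same spread for every gene and no clones, so error rates with libraries of shared clones were not tested. DESeq2 1.42.0, other filters and controls, blocks and left-out libraries were alternatives. The members and the gene lists were chosen with earlier results of these data known. Named genes are the members, up to 4 called genes per list by size of change, and the 3 genes most like FOSL1 or ATF3. Some genes that this rule names are not reported here.

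Groups came from the labels. Replicate numbers were not used as pairs in the main fits. By replicate number, deviations correlated at 0.06 to 0.23 for 1q loss, -0.08 to 0.42 for 7p loss and -0.03 to 0.49 for 8q loss in A2058. They correlated at -0.18 to 0.32 for 1q loss in A2780, and for 1q loss in MCF10A at -0.02 to 0.17 without hRas and -0.03 to 0.06 with it. Clone numbers paired MCF10A clones with and without hRas: their deviations correlated at 0.29 to 0.67 for the same number and -0.39 to 0.06 for different ones. No 2 libraries of a group agreed within sampling noise (smallest chi-square per degree of freedom 3.63 over 126 pairs). The summed clone block, the clone block in the interaction and the AGS fit without clones 1 and 4 were chosen after seeing the data.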

Additional observations from a re-analysis of the deposited data

Results flagged for a closer look

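Within groups of 4 to 10 libraries, 81 sets of member values were checked for a library far from the others by Dixon's criterion, and 6 had one, where chance gives about 1 in 20. In HCT116 with 8q loss, replicate 1 of clone 1 had 135 CPM of JUNB, against 74.2 to 84.5 CPM in the other 3 libraries, and 209 CPM of JUND, against 136 to 148 CPM. In AGS with 1q loss, clone 11 was high for 3 members. It had 33.7 CPM of FOSB against 8.73 to 14.4 CPM in the other 4 clones, 754 CPM of JUN against 474 to 550 CPM, and 321 CPM of ATF3 against 193 to 226 CPM. BATF3 was 0.456 CPM in AGS clone 4 and 0.33 to 0.363 CPM in the others, a gap of very few counts.

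FOS lay on opposite sides of its controls with 1q loss in different lines. All 6 A2780 loss libraries lay above their controls, and all loss libraries of A2058 and AGS lay below theirs. The log2 fold change in A2780 exceeded that in A2058 by 3.00 and that in AGS by 1.97. FOS did not pass in AGS (edgeR adjusted p = 0.176), and its call in A2780 was lost in 14 of 22 alternatives. These differences were not tested, since the lines were scaled apart.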

How the results depend on the processing

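Of 1831 alternative values for 103 results, 1744 kept their side of the threshold, 60 were no longer called and 27 became called, and 79 results never changed their call. No called value changed sign. Among results that were not called, 86 alternative values of 31 results did, such as JUN with 7p loss in A2058, which ran from -0.67 to 0.82 and was negative without clone 1. FOSL1 and FOSB in A2780, and FOS, FOSL2 and JUN in A2058 with 1q loss, were called under every alternative run. Counts of members called moved as follows. A2058 1q loss went from 5 to 6 with no filter, 4 with summed clones and 3 with WT replicates 3 and 4 only, and to 4 to 6 when libraries or clones were left out. AGS 1q loss went from 1 to 2 with DESeq2, 2 with no filter, 0 with WT or with TK+ controls only and 2 without clones 1 and 4, and to 0 to 2 when libraries were left out, 0 without any 1 control. A2780 1q loss went from 6 to 7 with DESeq2, 3 with summed clones, 3 with WT controls only, 2 with TK+ controls only and 4 with no filter, and to 3 to 7 when libraries or clones were left out. A2780 TK+ went from 1 to 0 with DESeq2, 2 with no filter, 0 at a mean CPM of at least 1, and 0 to 3 when libraries were left out. The effect of hRas in MCF10A WT went from 2 to 3 with no filter and to 0 to 1 when libraries were left out.

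With the replicate block, counts of called members were 6 in A2058 1q loss, 5 in A2780 1q loss, 2 in A2780 TK+, 3 for hRas in WT and 0 in the others with shared numbers. Over all genes, this block took the calls from 139 to 1 for 7p loss and from 308 to 39 for 8q loss in A2058. It took them from 1669 to 2288 for A2780 TK+ and from 237 to 711 for hRas in WT. With clone numbers as a block, hRas in the 1q-loss clones went from 0 to 6, and to 0 when the libraries of each clone were also summed, and the interaction stayed at 0. Over all genes, DESeq2 called 448 where edgeR called 139 for 7p loss and 666 against 308 for 8q loss in A2058, 116 against 22 in HCT116, 2126 against 1131 in AGS, 546 against 319 for 1q loss in MCF10A, 361 against 34 with hRas and 798 against 172 for hRas in 1q-loss clones, but fewer for A2780 TK+, 1153 against 1669. It moved the all-gene median for 1q loss with hRas from 0.03 to 0.16. Causes were not tested. Low counts limit JUN, ATF3 and BATF3 in A2780, BATF3 in AGS, FOSB in A2058 and ATF3 in MCF10A.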
